A study of Mus musculus with 6 samples.

Results

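The 10 genes described here belong to the Notch pathway and the secretory fate decision that it controls, and were read in small intestinal crypt cells: the Notch inhibitor Numb and its relative Numbl, the receptors Notch1 and Notch2, the ligands Jag1, Dll1 and Dll4, the Notch target Hes1, and the secretory fate factors Atoh1 and Gfi1. They were chosen by name, and all 10 of 10 were found among the 55331 genes listed and the 15460 genes tested. In the splicing tables, 17 of 61715 events belonged to them. The study set 3 WT libraries against 3 PTBP1_KO libraries from C57BL/6 mice at 60 days of age. WT mice were Ptbp1f/f without Cre, and PTBP1_KO mice were Ptbp1f/f;Vil-creER+/-, in which villin regulatory sequence drives a tamoxifen-inducible Cre in intestinal epithelium. Other cell types that come with the crypts therefore keep their Ptbp1 alleles. All groups received tamoxifen at 100 mg/kg on 2 consecutive days, and crypts were collected 20 h after the last injection, so every library carries floxed alleles and tamoxifen exposure and only PTBP1_KO carries Cre. The labels do not say that the libraries of a group came from separate mice, so the authors' p-values measure the spread between these libraries.

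Notch receptors are cut when a Delta or Jagged ligand on a neighbouring cell binds them, and the freed intracellular part enters the nucleus and switches on Hes1. In the crypt, HES1 represses Atoh1, so cells that receive the signal take the absorptive path, whereas cells that escape it express Atoh1, show Delta ligands on their surface and become goblet, Paneth, enteroendocrine or other secretory cells. Numb is an endocytic adaptor that restrains Notch, and its mRNA is made in forms that differ by a short exon in the phosphotyrosine-binding domain and a longer exon in the proline-rich region. PTBP1 is an RNA-binding protein that binds pyrimidine-rich RNA and often keeps exons out of mRNA.

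The Numb exons are shown first, because the splicing result on this gene turns on them. Each line gives the coding exon in capitals with 20 bases of the neighbouring exons in lower case, 5′ to 3′ along the mRNA, from GENCODE M21 transcripts on mm10.
Numb 33 nt exon, chr12:83825259-83825291, minus strand: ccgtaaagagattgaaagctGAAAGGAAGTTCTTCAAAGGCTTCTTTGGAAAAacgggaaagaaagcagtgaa
Numb 147 nt exon, chr12:83797197-83797343, minus strand: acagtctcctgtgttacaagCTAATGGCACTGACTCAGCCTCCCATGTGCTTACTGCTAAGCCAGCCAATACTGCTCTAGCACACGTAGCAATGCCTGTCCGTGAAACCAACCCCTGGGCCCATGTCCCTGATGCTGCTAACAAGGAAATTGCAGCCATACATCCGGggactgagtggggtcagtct
The lengths of 33 and 147 nt are multiples of 3 and add 11 and 49 codons. The annotated coding sequence has 653 codons with both exons (Numb-207), 642 with the 147 nt exon alone (Numb-210), 604 with the 33 nt exon alone (Numb-201) and 593 with neither (Numb-204).

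The targeted gene was checked before the others. Ptbp1 was listed at 230.0 FPKM in WT and 122.8 FPKM in PTBP1_KO, 53.4% of the WT level, with q = 0.0125 in the authors' deposited table. FPKM counts fragments scaled by transcript length and library size, so it can be compared between genes. Each group has a single FPKM in the table, in which the authors joined its 3 libraries, so no error or value per library stands beside the levels below. In bulk RNA, fewer cells of a type and less RNA per cell cannot be told apart. Epithelial Vil1 stood at 423 FPKM in WT and at 454 FPKM in PTBP1_KO. It is 1 of 8 enterocyte markers, of which 7 were tested, 4 above and 3 below WT, with none passing q < 0.05. These 8 summed to 8675 FPKM in WT and 8994 FPKM in PTBP1_KO. The 6 immune markers, such as Ptprc and Gzma, summed to 91.4 FPKM in WT and 165.7 FPKM in PTBP1_KO, all 6 of them higher and 3 passing q < 0.05. Of all tested genes, 0.537% passed q < 0.05 and 8455 of 15460 lay above WT. The endothelial markers Cdh5, Kdr and Emcn were listed at 0.00366, 0.0120 and 0.00612 FPKM in WT, and all 6 endothelial markers summed to 1.94 FPKM in WT and 2.40 FPKM in PTBP1_KO. Of 6 stromal markers, 4 were tested and none passed q < 0.05. Col1a1, Col1a2 and Col3a1, at most 0.749 FPKM in WT, were lower in PTBP1_KO with an unadjusted p below 0.05 in the authors' deposited table. Vim was higher, at 4.90 FPKM in WT and 6.28 FPKM in PTBP1_KO.

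No gene among the 10 passed the test for a change in level. By Cuffdiff with adjustment over all tested genes, in the authors' deposited table, none, or 0 of 10, passed q < 0.05, and 0 of 10 had an unadjusted p below 0.05. Over all tested genes, 0.537% passed q < 0.05 and 4.35% had an unadjusted p below 0.05, so a count of 0 among 10 lies near the background. A PTBP1_KO value above WT was listed for 4 genes and a value below WT for 6, and the median of log2((PTBP1_KO + 1)/(WT + 1)) was -0.04 over the 10 and 0.02 over all tested genes.

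Numb (ENSMUSG00000021224.15, chromosome 12, 83794034 to 83921934, minus strand) stood at 29.7 FPKM in WT and at 30.1 FPKM in PTBP1_KO. The authors' deposited table gave it a log2 fold change of 0.02 and p = 0.915. Numbl (ENSMUSG00000063160.12, chromosome 7, 27258433 to 27282144), a related adaptor best known from the nervous system, stood at 0.38 FPKM in WT and at 0.354 FPKM in PTBP1_KO. Numb was thus listed 78.2-fold above Numbl in WT and 85.1-fold above it in PTBP1_KO, so nearly all RNA of this adaptor pair was Numb in each group.

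Among the receptors, Notch1 (ENSMUSG00000026923.15, chromosome 2, 26457903 to 26516663) stood at 4.15 FPKM in WT and at 4.58 FPKM in PTBP1_KO. Notch2 (ENSMUSG00000027878.11, chromosome 3, 98013527 to 98150361) stood at 1.91 FPKM in WT and at 2.08 FPKM in PTBP1_KO. Both act in crypt progenitors. The authors' deposited table gave p = 0.386 for Notch1 and p = 0.490 for Notch2.

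The ligand Dll1 (ENSMUSG00000014773.13, chromosome 17, 15367354 to 15376872), carried by early secretory cells, stood at 20.2 FPKM in WT and at 15.8 FPKM in PTBP1_KO. This was the furthest apart of the 10 genes, at a log2 fold change of -0.35 with p = 0.116 and q = 0.9998 in the authors' deposited table, and it did not pass the threshold. Dll4 (ENSMUSG00000027314.6, chromosome 2, 119325784 to 119335962), the other epithelial Delta ligand, stood at 4.53 FPKM in WT and at 4.11 FPKM in PTBP1_KO. Its p in the authors' deposited table was 0.479. Jag1 (ENSMUSG00000027276.7, chromosome 2, 137081456 to 137116644) stood at 6.02 FPKM in WT and at 6.78 FPKM in PTBP1_KO. Its p in the authors' deposited table was 0.442. Dll1 was the most abundant ligand in each group, 4.45-fold above Dll4 in WT and 3.86-fold in PTBP1_KO.

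Hes1 (ENSMUSG00000022528.8, chromosome 16, 30064384 to 30067796), the repressor that Notch switches on, had the highest level of the 10 genes, with 49.0 FPKM in WT and 44.0 FPKM in PTBP1_KO. Atoh1 (ENSMUSG00000073043.5, chromosome 6, 64729125 to 64731245), the factor that commits cells to the secretory lineage, stood at 20.1 FPKM in WT and at 19.4 FPKM in PTBP1_KO. The authors' deposited table gave p = 0.295 for Hes1 and p = 0.748 for Atoh1. The ratio of Hes1 to Atoh1 was 2.45 in WT and 2.27 in PTBP1_KO. Gfi1 (ENSMUSG00000029275.18, chromosome 5, 107716657 to 107726036), which acts downstream of Atoh1 in goblet and Paneth cells, stood at 4.59 FPKM in WT and at 4.20 FPKM in PTBP1_KO. Its p in the authors' deposited table was 0.532.

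**Figure D1:**
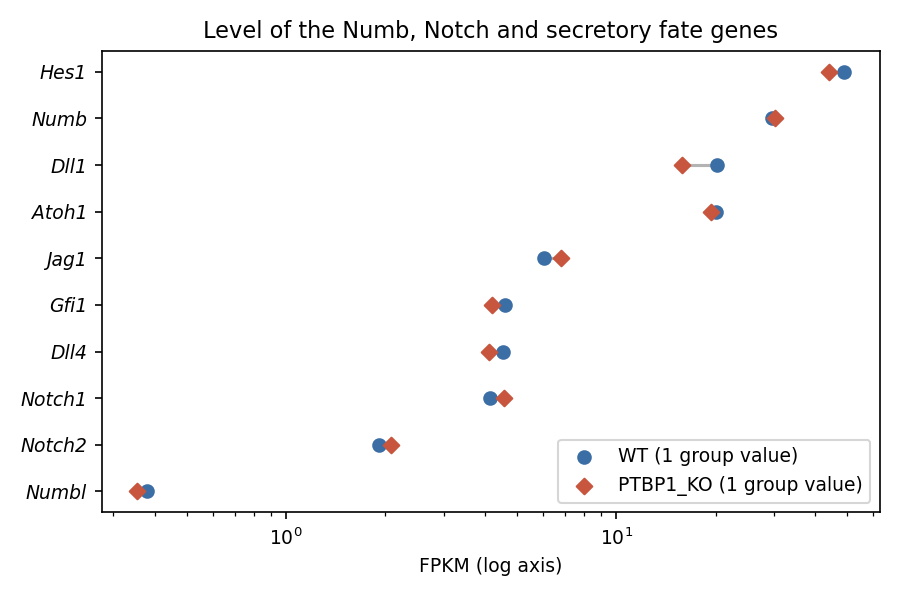
FPKM of each of the 10 genes on a log axis, with 1 circle for the WT group value and 1 diamond for the PTBP1_KO group value. The values span 0.354 FPKM for Numbl to 49.0 FPKM for Hes1, and the pair of points is widest for Dll1 at 20.2 and 15.8 FPKM.

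From high to low, the WT order was Hes1, Numb, Dll1, Atoh1, Jag1, Gfi1, Dll4, Notch1, Notch2 and Numbl. Whether neighbours in this order, such as Dll1 and Atoh1, differ beyond the spread between libraries cannot be read from 1 value per group. In WT, 87.1% of tested genes lay below Hes1, 78.6% below Numb and 10.3% below Numbl. The order in PTBP1_KO differed only in the place of Dll1, which came after Atoh1, and of Notch1, which came before Gfi1 and Dll4.

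The splicing tables hold reads for each of 6 libraries and were used to see how much the reads of these genes vary between libraries. The libraries stand in a first and a second set of 3, whose genotypes the headers do not name, so no direction by genotype is given for anything read from these tables. Reads at the best covered skipped exon event of each gene were divided by the library's reads over all skipped exon events, which ranged from 32226951 to 39774266 (an exon in several events counts several times). For Dll1 these reads (per 1000000 reads) were 8.05, 10.3 and 8.93 in the first set and 10.4, 9.59 and 14.8 in the second, so the sets overlapped and 1 library of the second set stood above the others. The span from lowest to highest library was 1.84-fold for Dll1, 1.64-fold for Numb, 1.57-fold for Dll4 and 1.30-fold for Jag1. For the less covered genes it was 2.91-fold for Gfi1 and 5.66-fold for Notch2. The sets did not overlap for 2 of the 6 genes: Dll4 had 3.17 to 4.35 in the first set and 4.37 to 4.98 in the second, and Jag1 had 1.64 to 1.71 in the first and 1.31 to 1.55 in the second. Over all skipped exon events 12% showed no overlap in this measure.

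**Figure D2:**
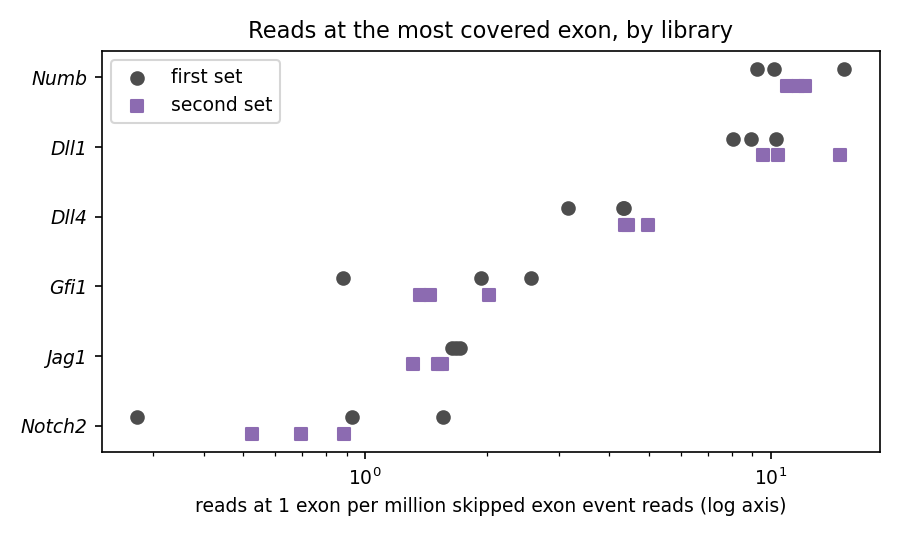
Reads at the most covered skipped exon event of each of 6 genes, scaled to the library's reads over all skipped exon events, on a log axis; each point is 1 of 6 libraries, with circles for the first set and squares for the second. Notch2 spreads widest, from 0.274 to 1.55, and the sets lie apart for Dll4 and Jag1.

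No splicing event of these genes passed the rule for a change. Most of their listed exons had a high inclusion level, as had most skipped exon events of all genes. Numb had 9 events, Jag1 3, Notch2 2, and Dll1, Dll4 and Gfi1 1 each, while Numbl, Notch1, Hes1 and Atoh1 had none listed. The rule for a changed event asked for an FDR below 0.05 in the authors' deposited table, set means at least 0.1 apart in inclusion level, and on average 20 or more reads in a library. All 17 events passed the minimum of reads and 0 of 17 changed, against 1.56% of all events and 1.68% of skipped exon events, so this count lies near the background. An FDR below 0.05 with any size of difference was listed for 1 of 17, the 147 nt exon of Numb, against 3.76% of all events and 3.79% of skipped exon events. Of the 14 skipped exon events, 10 had a pooled inclusion level above 98% and 1 was below 5%. Over all skipped exon events with that minimum of reads, 67.8% were above 98%, so this count too lies near the background. The largest absolute difference among the 17 events was 0.042 in the authors' deposited table.

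The 147 nt exon of Numb, which lengthens the proline-rich region, was in nearly all Numb mRNA. The first set had 486, 350 and 360 inclusion reads and 12, 11 and 8 skipping reads, which gave inclusion levels of 95.2%, 94.0% and 95.7%. The second set had 401, 350 and 429 inclusion reads and 0, 3 and 6 skipping reads, which gave 100%, 98.3% and 97.3%. All 3 libraries of the first set lay below all 3 of the second. This exon stands out by its FDR between the same sets, so the lack of overlap is not separate support. In the authors' deposited table the difference was -0.036 with p = 0.000188 and FDR = 0.00817, under the minimum difference of 0.1. Exact 95% intervals of single libraries, which cover counting error only, reached from 89.7% to 98.1% in the first set. In the second set, library 1 had an interval of 98.2% to 100%, above those of the first set, while the intervals of the other libraries began at 95.1% and 94.2% and overlapped with them. A library with 0 skipping reads and 401 inclusion reads allows 3 skipping reads, which would be an inclusion level of 98.5%. Leaving out any 1 library moved the difference of -3.52 percentage points to between -4.16 and -2.78, and without division by the lengths of the forms it was -1.80. Sets of libraries that do not overlap were found in 1 of the 14 skipped exon events of these genes and in 8.01% of all skipped exon events.

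The 33 nt exon of Numb, which adds residues to the phosphotyrosine-binding domain, was almost absent. Its inclusion level was 1.35%, 0.336% and 0.741% in the first set and 0%, 0% and 0.997% in the second, so the sets overlapped. Over all libraries 13 reads supported inclusion and 1673 supported skipping. The libraries without an inclusion read had 271 and 213 skipping reads, where 3 inclusion reads would have given 0.893% and 1.13%. The sets differed by 0.004 in the authors' deposited table (p = 1). Read exon by exon, most Numb mRNA in all 6 libraries thus held the 147 nt exon and lacked the 33 nt exon, the arrangement of Numb-210, although reads were not followed across both exons here.

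The most variable Numb exon lies in its 5′ untranslated region. This 85 nt exon (chr12:83855440-83855524, minus strand) was included at 60.7%, 55.7% and 61.0% in the first set and 62.4%, 51.5% and 58.4% in the second. The sets overlapped, and the authors' deposited table gave a difference of 0.017 with p = 0.625. It was the only one of the 14 skipped exon events between 5% and 95% pooled inclusion, at 58.3%. The exon is untranslated in all 3 annotated transcripts that hold it.

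**Figure D3:**
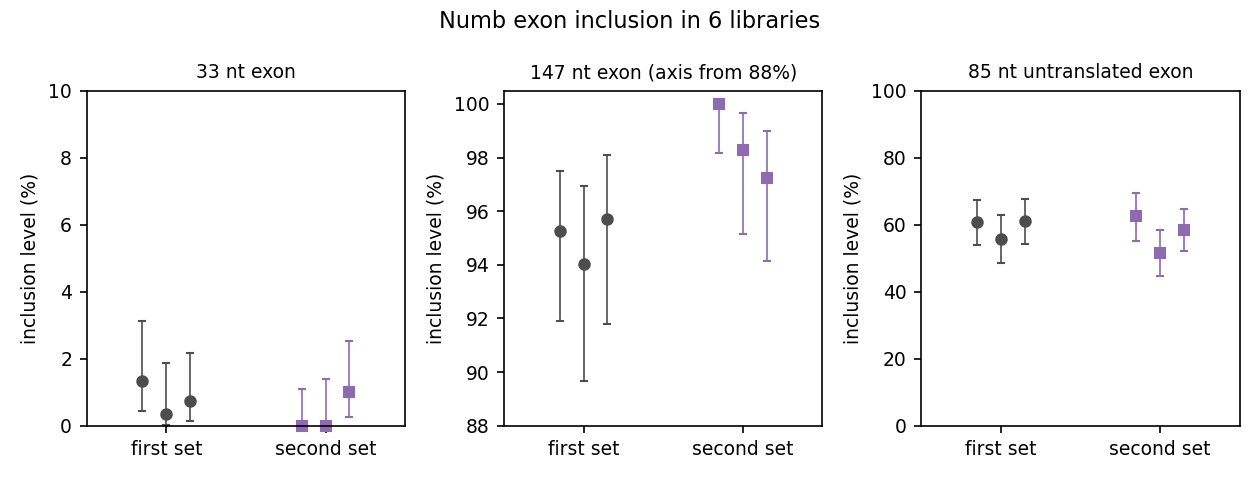
Inclusion level in percent of 3 Numb exons in each of 6 libraries, with circles for the first set, squares for the second and bars for exact 95% intervals of counting error; the axis ranges differ between panels. The points of the 33 nt exon stay at or under 1.35%, the 147 nt exon lies between 94.0% and 100% with the sets apart, and the 85 nt untranslated exon lies between 51.5% and 62.4%.

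Most other Numb events had a high inclusion level. A 3′ splice site choice that would shorten the 150 nt coding exon upstream of the 147 nt exon to 16 nt removes 134 nt (chr12:83799524-83799657), which is not a multiple of 3, and the 16 nt form is annotated in Numb-202, a transcript marked for nonsense-mediated decay. It was supported by 1 read against 3013 for the long form. The 75 nt coding exon (chr12:83831922-83831996) had at least 98.5% inclusion, the 141 nt coding exon (chr12:83842218-83842358) at least 99.4%, and the 145 nt untranslated exon (chr12:83876668-83876812) at least 96.9%, in each library. The 141 nt exon and the 145 nt exon were also listed as a mutually exclusive pair at 27.7% to 33.3%, although each had the high inclusion above in its own skipped exon events. Those events count only reads of mRNA that holds the neighbouring exons. Neither exon is annotated with these ends in Numb-201, Numb-207 or Numb-210, so their share of all Numb mRNA is not given by these levels.

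In the ligands, Notch2 and Gfi1, all listed skipped exon events had a pooled inclusion level above 95%. The 294 nt second exon of Dll1 (chr17:15374666-15374959) had 1 skipping read against 2189 inclusion reads, the 109 nt exon of Dll4 (chr2:119334048-119334156) had 2 against 899, and the 138 nt exon of Gfi1 (chr5:107721120-107721257) had 2 against 360. In Notch2 the 123 nt exon (chr3:98081917-98082039) was included at 100%, 87.3% and 100% in the first set and 100% in all libraries of the second. Its difference of -0.042 in the authors' deposited table (p = 0.505) rested on 4 skipping reads in library 2 of the first set, and without that library it was 0. Library 1 of the first set had only 9 reads there.

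Jag1 held the only retained intron, a 215 nt intron (chr2:137084707-137084921, intron 23 of the 26-exon coding transcript). Retention was 30.1%, 22.6% and 34.6% in the first set and 29.5%, 31.1% and 21.1% in the second, so the sets overlapped. The authors' deposited table gave a difference of 0.019 with p = 0.420. The remaining Jag1 exons, of 165 nt and 255 nt, had 1 skipping read each over all libraries.

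Beyond the 10 genes, 83 others of the Notch pathway and of secretory fate were read from 5 lists, and 75 of them were tested. No gene, or 0 of 75, passed q < 0.05 in the authors' deposited table (smallest q 0.244), and 4 of 75 (5.33%) had an unadjusted p below 0.05, 2 higher and 2 lower, against 4.35% of all tested genes. The medians of the log2 ratio in the 5 lists ran from -0.07 to 0.07.

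Of the other Notch receptors and ligands, 3 of 7 were tested and none passed. Notch4 stood at 3.02 FPKM in WT and at 3.24 FPKM in PTBP1_KO, Jag2 had 1.57 and 1.70 FPKM, and Dlk1 had 0.211 and 0.0821 FPKM. Receptor processing and ligand endocytosis had 18 of 19 genes tested, with a median log2 ratio of 0.04. Subunits of γ-secretase, which cuts Notch, were among its most abundant genes: Psenen stood at 118 FPKM in WT and at 125 FPKM in PTBP1_KO, and Ncstn at 66.0 and 72.1 FPKM.

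Among Notch nuclear partners and targets, 11 of 13 were tested and the median log2 ratio was -0.04. Olfm4, a stem cell gene that Notch sustains, stood at 618 FPKM in WT and at 578 FPKM in PTBP1_KO. Hes6 had 44.0 and 42.1 FPKM, and the feedback inhibitor Nrarp had 21.9 and 21.3 FPKM. The Notch targets Hes5 and Heyl had higher PTBP1_KO values at low levels: Hes5 stood at 0.129 FPKM in WT and at 0.430 FPKM in PTBP1_KO (p = 0.0134, q = 0.611 in the authors' deposited table), and Heyl had 0.167 and 0.302 FPKM (p = 0.0424 in the authors' deposited table). Neither passed q < 0.05.

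Of the secretory fate regulators, 21 of 22 were tested, 16 lay below and 5 above WT, and the median log2 ratio was -0.07, against 45.3% of all tested genes below. Pou2f3, the master factor of tuft cells, stood at 6.06 FPKM in WT and at 3.97 FPKM in PTBP1_KO (p = 0.00270, q = 0.244 in the authors' deposited table). Sox9, a crypt base and Paneth cell factor, stood at 16.7 FPKM in WT and at 13.6 FPKM in PTBP1_KO (p = 0.0400 in the authors' deposited table). The most abundant members were Id1 with 126 and 119 FPKM, Xbp1 with 124 and 136 FPKM, and Id3 with 46.4 and 42.6 FPKM. Among markers of mature secretory cells, the 7 tuft markers summed to 103 FPKM in WT and to 65.2 FPKM in PTBP1_KO, with Sh2d6 among those that passed, at a lower level. The 10 Paneth markers summed to 11396 and 18536 FPKM with 2 passing, Mmp7 and Ang4, both higher (defensin genes among them have near-identical copies, so their values are uncertain), and the goblet markers summed to 10020 and 10348 FPKM with 0 of 7 passing. All 8 enteroendocrine markers had PTBP1_KO values above WT (median log2 ratio 0.19), and 1 passed, Gcg, with 35.6 and 60.4 FPKM (q = 0.0125 in the authors' deposited table). Over all tested genes, 0.537% passed q < 0.05 and 8455 of 15460 lay above WT. The enteroendocrine regulators Neurog3, with 4.29 and 3.42 FPKM, Neurod1, with 3.62 and 3.42 FPKM, and Insm1, with 2.98 and 2.81 FPKM, had lower PTBP1_KO values and did not pass. The part of these cell types in the values of the regulators was not tested.

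**Figure D4:**
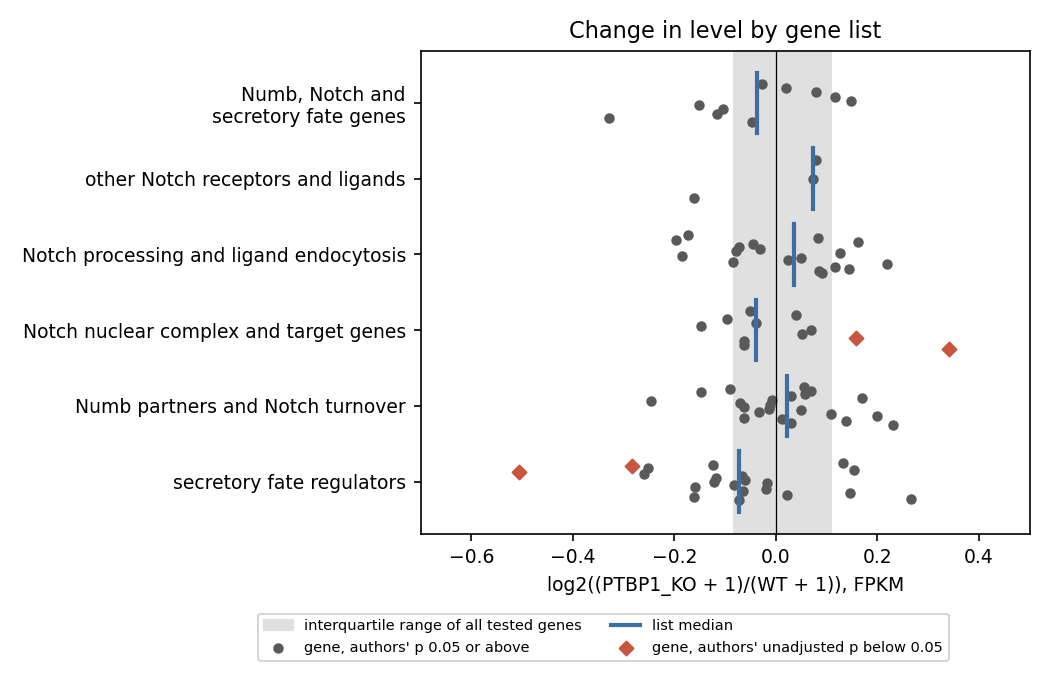
Change in level of each tested gene, as log2((PTBP1_KO + 1)/(WT + 1)) of FPKM, in the 10 genes and 5 further lists; blue lines are list medians, diamonds have an unadjusted p below 0.05 in the authors' table and the grey band is the interquartile range of all tested genes. List medians run from -0.07 for the secretory fate regulators to 0.07 for the other receptors and ligands.

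Numb partners and Notch turnover genes, a list of endocytic proteins that Numb works with and of other genes, held all 3 changed splicing events of the 5 lists. In level, 22 of 22 were tested and none passed. Llgl2 stood at 78.6 FPKM in WT and at 66.1 FPKM in PTBP1_KO, Sh3glb1 had 44.5 and 46.3 FPKM, and Numa1 had 39.2 and 40.0 FPKM. In splicing, 3 of its 78 skipped exon events with enough reads changed (3.85%), against 1.68% of all skipped exon events, and the 3 lay in Ap2b1, Dtx2 and Aak1. Over the 5 lists together it was 3 of 137 skipped exon events (2.19%), and 78 of these 137 lay in this list. The lists were chosen with earlier results of these data known, so these shares are a description. The splicing of these lists was read after the values of the 10 genes had been seen. The following exons are named by their FDR between the same sets, so a lack of overlap between the sets is not separate support. Their sequences are shown as above, all on the plus strand of mm10.
Ap2b1 42 nt exon, chr11:83364795-83364836: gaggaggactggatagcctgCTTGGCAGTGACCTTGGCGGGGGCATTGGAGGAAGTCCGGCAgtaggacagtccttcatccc
Dtx2 138 nt exon, chr5:136026470-136026607: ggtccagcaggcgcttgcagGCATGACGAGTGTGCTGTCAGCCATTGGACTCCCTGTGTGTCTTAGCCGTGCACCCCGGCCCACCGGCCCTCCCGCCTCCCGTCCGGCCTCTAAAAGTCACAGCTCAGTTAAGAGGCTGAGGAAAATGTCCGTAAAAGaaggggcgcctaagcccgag
Aak1 96 nt exon, chr6:86970991-86971086: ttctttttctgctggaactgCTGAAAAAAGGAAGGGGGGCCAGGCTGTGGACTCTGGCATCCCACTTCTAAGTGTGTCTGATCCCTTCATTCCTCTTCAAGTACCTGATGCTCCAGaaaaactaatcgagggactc

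Ap2b1 encodes the beta subunit of the AP-2 adaptor, through which clathrin takes up membrane cargo. Its 42 nt coding exon, which keeps the frame, was included at 58.0%, 41.7% and 53.4% in the first set and 31.8%, 28.8% and 26.5% in the second. Every library of the first set lay above every library of the second, and the authors' deposited table gave a difference of 0.220 with FDR = 3.2e-05. Dtx2 encodes a Deltex ubiquitin ligase that acts on Notch. Its 138 nt coding exon was included at 63.0%, 63.2% and 68.5% in the first set and 84.9%, 81.7% and 81.7% in the second, again without overlap, with a difference of -0.179 and FDR = 0.00285 in the authors' deposited table.

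Aak1 encodes a kinase of the AP-2 complex that phosphorylates Numb. Its 96 nt coding exon was included at 13.0%, 11.8% and 44.4% in the first set and 7.41%, 0% and 5.41% in the second, with a difference of 0.188 and FDR = 0.00334 in the authors' deposited table. The event rested on 17 to 46 reads per library, and without library 3 of the first set the difference fell from 18.8 to 8.13 percentage points, below the minimum.

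**Figure D5:**
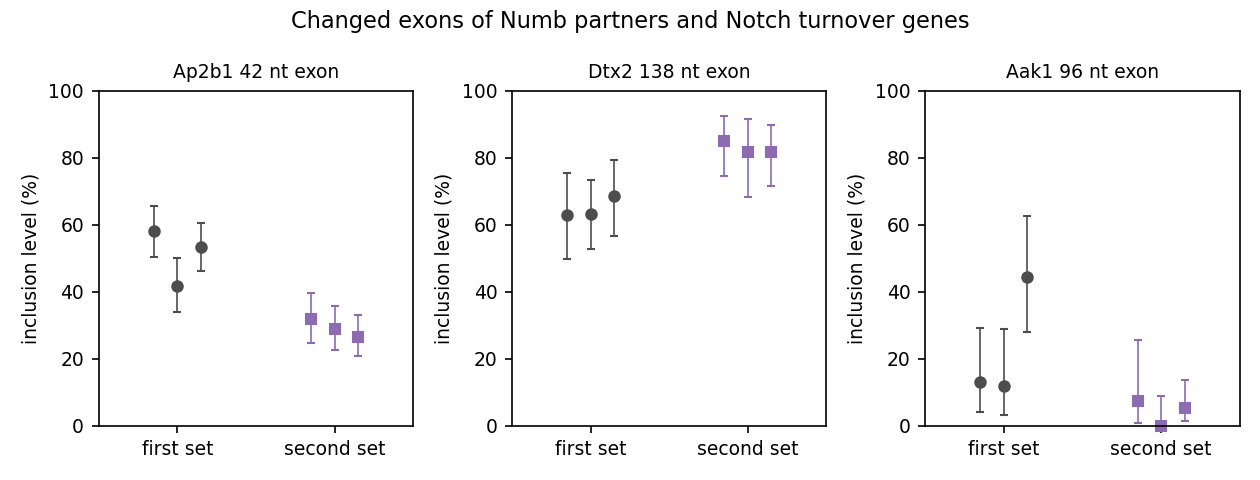
Inclusion level in percent of the exons of Ap2b1, Dtx2 and Aak1 in each of 6 libraries, with circles for the first set, squares for the second and bars for exact 95% intervals of counting error. Ap2b1 lies between 41.7% and 58.0% in the first set and 26.5% and 31.8% in the second, Dtx2 is higher in the second set, and 1 Aak1 library stands at 44.4%.

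Smaller differences with an FDR below 0.05 in the authors' deposited table were listed for 4 more genes of the lists. With the changed events, 9 of 197 list events had such an FDR, among them 7 of 137 skipped exon events (5.11%, against 3.79% of all skipped exon events). Events of a gene that share reads were counted separately. Ap2a1, the alpha subunit of AP-2, had a 66 nt exon at 5.36% to 8.79% in the first set and 0% to 1.5% in the second (difference 0.069). Numa1, a spindle protein, had a 42 nt exon at 94.6% to 98.9% and 87.0% to 92.6% (difference 0.069). The polarity protein Pard3 had an 84 nt exon at 91.4% to 97.1% and 98.9% to 100% (difference -0.053). The sets did not overlap for these 3 exons, as for 8.01% of all skipped exon events. These 3 were named by an FDR between the same sets, so their lack of overlap is not separate support. In Rfng, a Fringe enzyme that modifies Notch, the sets overlapped for an 89 nt exon (difference -0.060) and for a retained intron (difference -0.037). The region listed as this intron (chr11:120782549-120783006) contains the exon. Both events had the same skipping reads in every library, 25 in all, so they are not separate results. For the Rfng exon the difference was -2.87 percentage points without library 3 of the first set and -10.04 without library 1, which is past the minimum. For the Rfng intron it was -1.61 and -6.49 percentage points without the same libraries, and -0.965 without division by form length. A retained intron of Dtx2 next to its changed exon had a difference of 0.038, also without overlap of the sets. Without division by form length it was 12.5 percentage points, by construction, since the 1891 nt intron collects more reads than the spliced form. The minimum is set on divided levels and does not apply to that value.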

How the data were processed

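Poly(A) RNA of crypt cells was sequenced from stranded TruSeq libraries, 3 WT and 3 PTBP1_KO, grouped by sample title. The submitters' processing notes name bcl2fastq 2.20, Trimmomatic 0.38, STAR 2.6.1d, Cufflinks, Cuffdiff and mm10. Whether strand was used in counting is not given in the sources used here. FPKM values, 1 per group, the log2 fold change and the p-value and q-value of each gene were computed by the authors, per the file headers. The depth behind FPKM is unknown. The labels call the splicing files MATS tables. As deposited by the authors they give whole read counts per library, form lengths, a p-value and an FDR. The difference score, computed by the authors per the file headers, is the mean inclusion level of the first set minus that of the second.

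Inclusion was recomputed for each library as (inclusion reads/form length) over the same sum for both forms, and the set differences came within 0.00112 of those deposited. The computation was checked on simulated data. Exact (Clopper-Pearson) 95% intervals of read shares were converted to inclusion levels. PCR copies are not independent molecules, so intervals and limits cover counting error only. No test between libraries was run, because no column names a genotype. The planned windows in introns were not analysed here. Coordinates are 1-based on mm10, with exons from GENCODE M21. Values were computed in Python 3.11.15 with pandas 2.3.3, numpy 2.4.6 and scipy 1.17.1, and drawn with matplotlib 3.10.9.

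The 10 genes and all lists were chosen with earlier results of these data known. The text names all 10 genes, list genes with a q or unadjusted p below 0.05, the 3 of each list highest in WT, their events with an FDR below 0.05 and the best covered event of each gene; some genes that this rule names are not reported here.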

Additional observations from a re-analysis of the deposited data

How the results depend on the processing

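No paired analysis was possible because the gene table holds 1 value per group and the columns of the splicing tables carry no sample name or replicate number. For the 10 genes, the count of 0 changed in level was also 0 at an unadjusted p below 0.05. By construction it was 0 at the stricter settings of q < 0.01, a fold of at least 1.5 and at least 1 FPKM. Their median log2 ratio of -0.04 ran from -0.06 to -0.02 with pseudocounts of 0.1 and 5 FPKM, after centring and with at least 1 FPKM. By construction its sign could not turn under these settings. The count of 0 changed events stayed 0 under 6 other limits on FDR, difference or reads and with shared regions counted once. Of these settings, only the minimum difference of 0.05 could have raised it. The others were stricter, merged events, or set a minimum of reads that every event had already passed. Without a minimum difference the count became 1. That setting was tried after seeing the data, as were the settings for events of the further lists. Among the further lists, 4 genes had an unadjusted p below 0.05 in place of 0 at q < 0.05. Their 3 changed events became 7 at a minimum difference of 0.05 and 1 at 0.2, by construction, and 2 with a mean of at least 50 reads or with 20 reads in every library, limits that the Aak1 event misses. The difference of the 147 nt Numb exon was -1.80 percentage points without division by form length, by construction, since the longer form collects more reads. Differences of the Dll1, Dll4, Gfi1, Notch2 and Numb 3′ splice site events were 0 without 1 library each, and the Jag1 intron ranged from -1.21 to 5.09 percentage points when 1 library was left out. The FDR could not be recomputed without a library. Depth was lowest for Notch2, with a mean of 29 reads per library at its best covered exon.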

Other observations

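The inclusion profile of the 147 nt Numb exon over the 6 libraries was compared with 35523 skipped exon events of other genes that had at least 20 reads in every library. The 5 closest lay in Cmbl, Nme6, Atpsckmt, Capza1 and Alg9, with root mean square differences of 0.798 to 0.949 percentage points, and 6 events lay within 1 percentage point. This is a description of 6 libraries that share their reads and depth.

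The 33 nt Numb exon holds TCTT 2 times and TTCT 2 times on the mRNA strand, in overlapping copies. Of 120 listed skipped exons of the same length with a GENCODE M21 sequence, 7.50% hold TCTT and 15.8% hold TTCT. The 147 nt exon holds neither, and of 211 skipped exons of its length 46.0% hold TCTT and 49.8% hold TTCT. Neither exon holds CTCTCT. The Ap2b1 exon holds none of the 3 motifs, the Dtx2 exon holds TCTT once and the Aak1 exon holds TCTT and TTCT once each. The opposite strand was not searched, because these exons are read as RNA. A match is a description of letters and not of binding.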
